A study of Homo sapiens with 24 samples.

Results

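The EGF receptor family and its ligands were followed as 9 genes out of 58051 listed in the files, chosen by name as members of the family. The set held 3 receptor genes (*EGFR*, *ERBB2* and *ERBB3*) and 6 ligand genes (*AREG*, *EREG*, *TGFA*, *HBEGF*, *EPGN* and *NRG1*), and each of the 9 had a row in all 24 libraries. RNA had been sequenced from the colorectal carcinoma cell lines HT29, HCT116 and SW480. In each line, 2 clones with intact *CTNNB1* (WT) were set against 2 clones carrying biallelic CRISPR/Cas9 deletions that shift the *CTNNB1* reading frame (KO), and each clone gave a library in a round A and again in a round B, which makes 4 libraries per line and genotype. All cells were grown in the same medium with no drug or ligand added, and each KO clone was expanded from a single sorted cell. According to the study, the WT clones had also met CRISPR/Cas9 and been cloned in the same way, but kept an unedited *CTNNB1* locus. *CTNNB1* encodes β-CATENIN, the coactivator through which WNT signals reach target genes. HT29 and SW480 carry mutant *APC*, whereas HCT116 carries an activating allele of *CTNNB1*. Each genotype rested on 2 clones of 1 line, and the study described SW480 KO cells as turning senescent with prolonged culture, which limits them as a model. At which stage the RNA was taken is not given in the sources used here. P-values over libraries treat the rounds of a clone as replicates. A library is named by genotype, clone and round, such as KO 28A.

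The receptors are tyrosine kinases that pair up when a ligand binds and pass the signal to the RAS-MAPK and PI3K cascades. ERBB2 has no known ligand and serves as a partner, ERBB3 has weak kinase activity of its own, and AREG, EREG, TGFA, HBEGF and EPGN bind EGFR, whereas NRG1 binds ERBB3. The ligands are made as membrane-anchored precursors that metalloproteases of the ADAM family release. In colorectal cancer, EGFR is the target of therapeutic antibodies, and *AREG* and *EREG* are studied as markers of the response to them.

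Values are normalized counts, meaning that the reads of each gene had been divided by the size factor of their library. The libraries held between 22297049 and 29068378 reads on genes, with a median of 27486226. *CTNNB1* RNA in the KO clones was 4.98% of the WT mean in HT29, 1.83% in HCT116 and 2.18% in SW480, and all 12 KO libraries lay below all WT libraries of their line. The library HCT116 KO 47A stood apart with 35449 genes holding a read, against 20256 to 24944 in the other libraries. Results of tested members are therefore also given without it where it changed a call or sign. Other HCT116 results, such as those of pathway genes and read totals, include it. *KRT8*, an epithelial keratin, was the highest of 12 epithelial markers in each group, with group means of 74857 to 311236, while *CDX1* was at or under 3 reads in every library of 5 of the 6 groups. Group means of at least 100 were reached by 8 (WT) and 9 (KO) of the 12 in HT29, 6 in both genotypes of HCT116 and 5 in both of SW480. Of 9 markers of other cell types, *CD68*, a macrophage marker, stayed at or under 3 reads in all 24 libraries. Others were higher. *COL1A1* had means of 346 in WT and 333 in KO HCT116 cells, and *VWF* had 161 in SW480 KO cells. The summed level of the 9 markers ran from 14.2 to 594 per library. That sum was 14.2 to 27.8 in WT and 28.2 to 93.0 in KO libraries of HT29, and its part in the HT29 results was not tested.

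On GRCh37, *EREG* (chr4:75230862-75254466) and *AREG* (chr4:75310853-75320722) lie on the plus strand of chromosome 4, 56386 bases apart, and *EPGN* lies 48355 bases before *EREG*. *TGFA* is on the minus strand of chromosome 2 (chr2:70674416-70781325) and *HBEGF* on the minus strand of chromosome 5 (chr5:139712428-139726188). *EGFR* is on chromosome 7 (chr7:55086710-55279321), *ERBB2* on chromosome 17 (chr17:37844167-37886679) and *ERBB3* on chromosome 12 (chr12:56470583-56497289). *AREG* has a near-identical copy on the same chromosome of this build, *AREGB* (chr4:75480629-75490486), and 82.6% of the 100-base windows of the *AREG* transcript also occur there. How reads that match both copies were counted is not given in the sources used here, so that *AREG* levels are uncertain against other genes. The library kit does not mark strand, and 571 exonic bases of *ERBB2* overlap *MIEN1* on the opposite strand, so that reads there cannot be told apart.

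The first question was at what level each gene was expressed before β-CATENIN was removed. Levels were compared between genes as normalized counts per kilobase of the canonical transcript. In WT HCT116 cells the ligands *AREG* and *EREG* led the family, with 8253 and 3897 normalized counts per kilobase, and their libraries overlapped neither each other nor any other member. *ERBB2* followed with 483 and *TGFA* with 354, and *EGFR*, *HBEGF* and *ERBB3* came next at 142, 118 and 117 with overlapping libraries. In WT HT29 cells *AREG* again had the highest mean, 1584 per kilobase, but the libraries of *AREG*, *ERBB2*, *TGFA*, *ERBB3*, *EGFR* and *EREG* overlapped from each neighbour to the next, down to 446 for *EREG*. In WT SW480 cells the order was different. *EGFR* led with 366, followed by *TGFA* with 290 and *ERBB2* with 268, and *AREG* and *EREG* lay at 17.8 and 6.64. *EPGN* and *NRG1* were the lowest members in each of the 3 lines. With all exonic bases as the length, *TGFA* took the first rank from *EGFR* in WT SW480 and lay above *ERBB2* in WT HCT116 (296 against 213), and *EREG* moved from rank 6 to rank 3 in WT HT29.

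**Figure D1:**
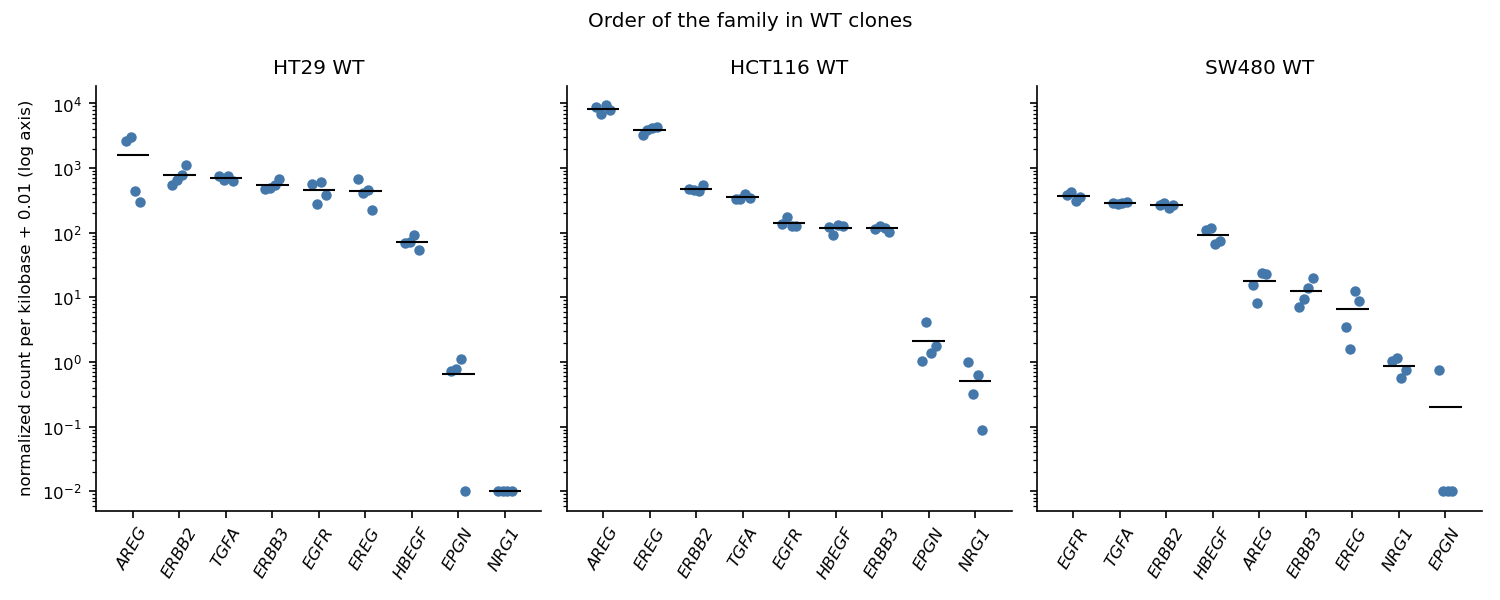
Normalized counts per kilobase of the canonical transcript in the 4 WT libraries of each line, plotted on a log axis after adding 0.01, with members ordered by their mean (black line). *AREG* and *EREG* sit at the top in HCT116 with means of 8253 and 3897, and at 17.8 and 6.64 in SW480.

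Between the WT clones of the lines, 4 of the 7 members tested differed between HT29 and HCT116, where 37.5% of all genes were called. A gene was called where limma gave an adjusted p under 0.05 and an absolute log2 difference over 1. The count was 5 of 7 between HT29 and SW480 (40.1% of all genes) and 4 of 7 between HCT116 and SW480 (40.2%). *ERBB3* was called in all 3 pairs. Its WT mean was 3084 ± 546 normalized counts in HT29, 655 ± 63.9 in HCT116 and 71.6 ± 32.3 in SW480 (SD, n = 4 each). *AREG* and *EREG* were called in all 3 pairs as well, and *EREG* spanned the widest range, from 30.6 ± 23.1 in SW480 through 2057 ± 849 in HT29 to 17987 ± 2291 in HCT116 (SD, n = 4). The log2 difference of *EREG* between HCT116 and SW480 was 9.52 (SE 0.53, adjusted p = 1.62e-08 by limma). *EGFR* was lower in HCT116 than in both other lines, by 1.64 on the log2 scale against HT29 (adjusted p = 1.58e-05) and by 1.37 against SW480 (adjusted p = 7.50e-05). *HBEGF* was not called in any pair, with WT means of 169.7 to 277. *TGFA* lay at the fold for a call between HT29 and HCT116, with a log2 difference of 0.99 (adjusted p = 7.55e-07), and was called in 8 of 22 alternatives, edgeR (1.03), DESeq2 (1.01) and TMM scaling (1.00) among them, as well as without HT29 WT 11B, HT29 WT 40B or HCT116 WT 6A.

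The second question was how the family differed between KO and WT clones within a line. In SW480, 4 ligands rose, *AREG*, *EREG*, *TGFA* and *HBEGF*, out of 7 members tested, where 17.5% of all tested genes were called and 10.7% were called as higher. No tested receptor was called.

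The *AREG* values of SW480 were 19.2, 10.1, 29.9 and 28.4 normalized counts in the libraries WT 4A, WT 4B, WT 5A and WT 5B, and 149.6, 159.6, 190.5 and 206 in KO 17A, KO 17B, KO 21A and KO 21B. The lowest KO library was far above the highest WT library. The KO mean was 8.06 times the WT mean, with a log2 fold change of 3.05 (SE 0.31, adjusted p = 1.85e-05 by limma). *AREG* encodes amphiregulin, a low-affinity ligand of EGFR.

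For *EREG*, which encodes epiregulin, the same WT libraries held 16.2, 7.35, 57.9 and 41.1 normalized counts and the KO libraries 1309, 1257, 598 and 720.02. Every KO library was above every WT library, and the clones of each genotype separated as well. WT 5 lay above WT 4 and KO 17 above KO 21. The KO mean was 31.7 times the WT mean, and the log2 fold change was 5.23 (SE 0.58, adjusted p = 6.92e-05).

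*TGFA*, which encodes transforming growth factor α, was the most abundant of these ligands in WT SW480 cells. Its values were 1202, 1137, 1194 and 1245 in the WT libraries and 5282, 5170, 4085 and 4363 in the KO libraries. The groups were far apart relative to the spread within them, and the KO mean was 3.96 times the WT mean (log2 fold change 1.98, SE 0.09, adjusted p = 6.53e-08). *HBEGF*, which encodes a heparin-binding ligand, had 258, 276, 160 and 176 normalized counts in the WT libraries and 974, 989, 790 and 828 in the KO libraries. Again no library overlapped, and the KO mean was 4.12 times the WT mean (log2 fold change 2.07, SE 0.18, adjusted p = 5.92e-06). All 4 ligands were still called when any 1 library or any 1 clone was removed. In these bulk samples a change in the share of cells that express a gene and a change in RNA per cell cannot be told apart.

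*EGFR* was also higher in the SW480 KO clones, with 3794, 4162, 3039 and 3517 normalized counts in the WT libraries and 7415, 6610, 5600 and 6003 in the KO libraries. The groups did not overlap. The log2 fold change of 0.82 (SE 0.11, adjusted p = 0.000167) was past the adjusted p but under the fold that a call required. *ERBB2* had a mean of 1220 ± 84.4 in WT and 1049 ± 108 in KO (SD, n = 4), a log2 difference of −0.22 (95% interval −0.42 to −0.02, adjusted p = 0.0652). *ERBB3* had 71.6 ± 32.3 and 69.0 ± 11.7, with a 95% interval of the log2 difference from −0.61 to 0.69.

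Because these 4 ligands were higher together, the 250 bases before their annotated starts are shown, with matches to a TCF/LEF core (TCAAAG), an AP-1 site (TGANTCA) and a cyclic AMP response element (TGACGTCA) on either strand in capitals. None of the motifs overlaps another in these windows. The sequences are from RefSeq on GRCh38.p14, read 5′ to 3′ along the gene: AREG at chr4:74444886-74445135 (plus strand), EREG at chr4:74364895-74365144 (plus strand), HBEGF at chr5:140346604-140346853 (minus strand) and TGFA at chr2:70553827-70554076 (minus strand), the farther upstream of 2 entries.
AREG: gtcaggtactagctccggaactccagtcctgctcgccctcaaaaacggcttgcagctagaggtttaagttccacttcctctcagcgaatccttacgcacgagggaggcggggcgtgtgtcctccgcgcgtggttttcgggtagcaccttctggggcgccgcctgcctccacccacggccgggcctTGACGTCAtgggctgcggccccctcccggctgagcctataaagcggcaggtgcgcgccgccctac
EREG: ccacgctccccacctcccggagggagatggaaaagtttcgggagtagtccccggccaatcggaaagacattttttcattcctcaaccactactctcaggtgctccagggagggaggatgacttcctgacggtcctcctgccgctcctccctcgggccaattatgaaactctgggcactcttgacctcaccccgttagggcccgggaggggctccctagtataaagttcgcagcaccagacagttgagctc
HBEGF: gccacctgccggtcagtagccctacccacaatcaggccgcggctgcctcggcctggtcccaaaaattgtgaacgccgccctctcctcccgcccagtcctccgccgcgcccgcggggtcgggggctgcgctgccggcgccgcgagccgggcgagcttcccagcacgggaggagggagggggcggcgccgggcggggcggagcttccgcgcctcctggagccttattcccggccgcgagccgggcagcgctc
TGFA: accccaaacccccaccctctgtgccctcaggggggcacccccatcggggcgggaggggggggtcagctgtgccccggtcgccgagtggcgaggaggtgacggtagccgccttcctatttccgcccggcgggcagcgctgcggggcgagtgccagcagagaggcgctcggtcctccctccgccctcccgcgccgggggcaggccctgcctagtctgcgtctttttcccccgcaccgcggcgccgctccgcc
The window of *AREG* held 1 match, the cyclic AMP response element letters TGACGTCA, 58 to 65 bases before the start, and the windows of *EREG*, *HBEGF* and *TGFA* held none of the 3 motifs. Of 35116 promoter windows of the same length, 1.65% held TGACGTCA, 6.57% held TGANTCA and 11.2% held TCAAAG. A match is a description of letters and not a site of binding. Among the 7 members with an entry (*ERBB3* and *NRG1* have none), matches to TGANTCA were also found before 1 of the 2 starts of *EGFR* and before the start of *ERBB2*.

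In HT29, 1 of 7 members tested was called, where 2.3% of all genes were called and 1.9% were called as higher. *HBEGF* rose, from 163, 170, 216 and 129 normalized counts in the libraries WT 11A, WT 11B, WT 40A and WT 40B to 408, 459, 1189 and 1106 in KO 28A, KO 28B, KO 38A and KO 38B. The lowest KO library was above the highest WT library, and clone KO 38 was 2.65 times clone KO 28. The KO mean was 4.66 times the WT mean (log2 fold change 2.07, SE 0.38, adjusted p = 0.0288 by limma). The call held in 12 of 24 alternative fits, edgeR and DESeq2 among them. It did not hold where the clone was taken as the unit. With 1 mean per clone, 0 of 14921 genes were called, so that this fit cannot decide on *HBEGF*. The adjusted p was 0.672 with 1 mean per clone and 0.084 with the clone as a random effect. Without the library WT 11A it was 0.0821, without WT 11B 0.0717, without WT 40A 0.0642, without WT 40B 0.0879 and without KO 38A 0.0684. Leaving out clone WT 11 gave 0.123 and leaving out clone WT 40 gave 0.143. The log2 fold change stayed between 1.37 and 2.77 in each of these fits.

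The receptors of HT29 had wide intervals. *EGFR* had 5652, 2712, 6024 and 3851 normalized counts in the WT libraries and 2665, 2856, 1581 and 701 in the KO libraries. The KO mean was 42.8% of the WT mean, but WT 11B lay within the KO range, and the log2 fold change of −1.35 (95% interval −2.38 to −0.32) had an adjusted p of 0.183. Without clone KO 28 it was −2.04 with an adjusted p of 0.0413, which met the rule for a call. *ERBB2* had 2538, 3016, 3619 and 5107 in WT and 7060, 7163, 5442 and 4784 in KO (log2 fold change 0.80, 95% interval 0.26 to 1.35, adjusted p = 0.134). The groups overlapped through WT 40B. *ERBB3* had means of 3084 ± 546 and 5003 ± 1495 (SD, n = 4), a log2 difference of 0.66 (adjusted p = 0.200). Without clone KO 38 its log2 difference was 1.04 with an adjusted p of 0.0159, also a call.

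The 3 remaining ligands of HT29 were not called. *AREG* varied more between clones than between genotypes. The WT libraries held 3200, 3713, 537 and 368 normalized counts and the KO libraries 1023, 911, 2509 and 3003. Thus WT 11 and KO 38 were high, WT 40 and KO 28 were low, and the 95% interval of the log2 difference between genotypes ran from −1.41 to 2.20. *EREG* had 2057 ± 849 in WT and 1814 ± 462 in KO, and *TGFA* had 2891 ± 263 and 3192 ± 432 (SD, n = 4 each), with 95% intervals of −0.88 to 0.64 and −0.19 to 0.47.

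In HCT116 none of 8 members tested was called, where 5.06% of all genes were called. An adjusted p under 0.05, without regard to the fold, was found for *TGFA* alone, where 14% of all genes had it. Both edgeR and DESeq2 called 0 members as well. *TGFA* came nearest. Its libraries held 1384, 1347, 1662 and 1435 normalized counts in WT 4A, WT 4B, WT 6A and WT 6B and 2436, 2436, 2102 and 2561 in KO 44A, KO 44B, KO 47A and KO 47B, with no overlap. The KO mean was 1.64 times the WT mean, and the log2 fold change of 0.71 (SE 0.11, adjusted p = 0.00141 by limma) was past the adjusted p but under the fold for a call. *HBEGF* had 286, 220, 306 and 297 in WT and 392, 336, 390 and 431 in KO. These groups did not overlap either, and the log2 fold change was 0.49 (SE 0.15, adjusted p = 0.0504, and 0.0451 with the round as a block). *EREG* had 17987 ± 2291 in WT and 22539 ± 3300 in KO (SD, n = 4), a log2 difference of 0.32 with an adjusted p of 0.113, or 0.0461 with the round as a block, and so under the fold for a call in both fits. *AREG*, the most abundant member per kilobase, had 10184 ± 1366 and 10112 ± 1784, and the 95% interval of the log2 difference ran from −0.32 to 0.29.

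Of the receptors in HCT116, *EGFR* was split between the KO clones. It had 1365, 1743, 1249 and 1275 normalized counts in the WT libraries, 1816 and 2149 in KO 44A and KO 44B, and 729 and 1124 in KO 47A and KO 47B. KO 44 lay above all WT libraries and KO 47 below them. The log2 difference between genotypes was −0.06 (95% interval −0.73 to 0.61), and 0.23 without KO 47A. *ERBB2* (95% interval −0.14 to 0.38) and *ERBB3* (−0.12 to 0.42) were not called.

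**Figure D2:**
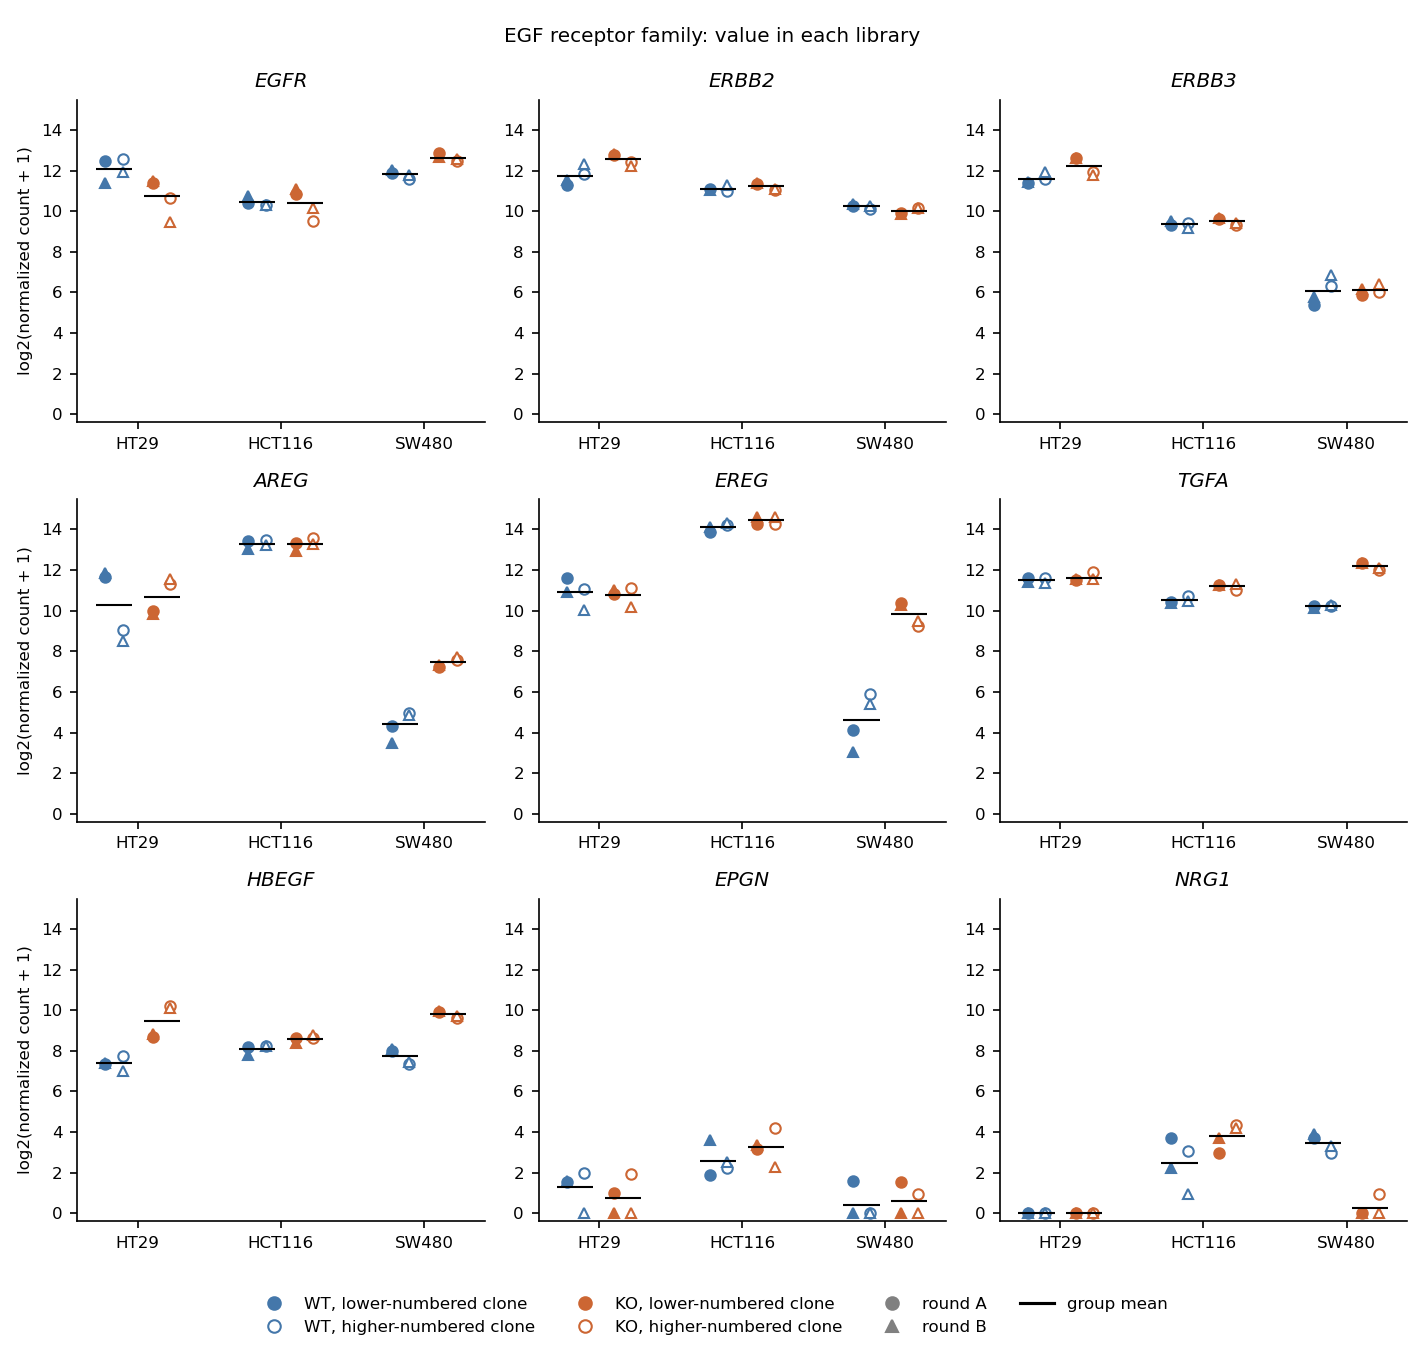
Log2 of the normalized count plus 1 for each of the 9 members (panels) in every library, by line, with WT libraries in blue on the left and KO libraries in orange on the right of each line, filled and open symbols for the lower- and higher-numbered clone, and black lines for group means. *AREG*, *EREG*, *TGFA* and *HBEGF* separate KO from WT in SW480, whereas *AREG* in HT29 separates clones.

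**Figure D3:**
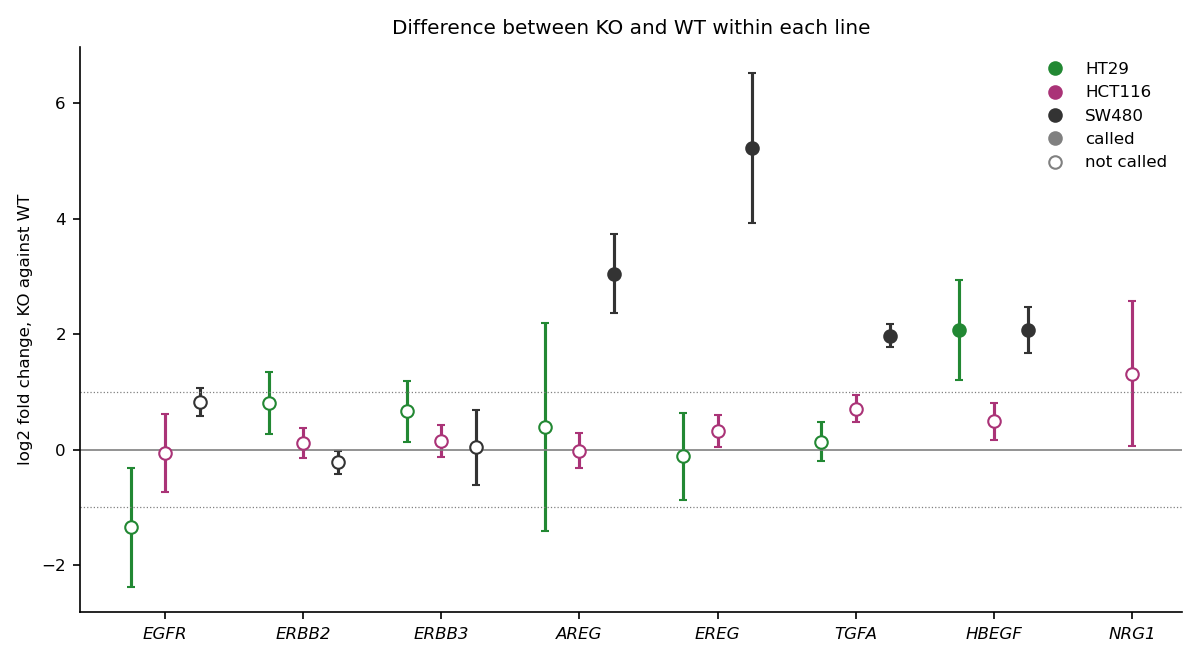
Log2 fold change of KO against WT (points) with 95% intervals from limma (bars) for the 8 members tested in at least 1 line, with filled points for called members and dotted lines at the fold threshold. *EREG* in SW480 has the largest value, 5.23, and *HBEGF* has 2.07 in both HT29 and SW480.

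Whether the KO effect differed between lines was tested as a difference of log2 fold changes over all 24 libraries. Between HT29 and SW480, 6 of 8 members tested were called, where 12.3% of all genes were called. The 6 include *NRG1*, which had 0 reads in all HT29 libraries, so that its HT29 effect was fixed at 0. Between HCT116 and SW480 the count was 5 of 8 (10% of all genes), and between HT29 and HCT116 it was 1 of 8 (5.39%). These 3 comparisons share libraries. Differences are given as the first line minus the second. The effect on *EREG* differed by −5.35 between HT29 and SW480 (SE 0.61, adjusted p = 1.37e-06) and by −4.91 between HCT116 and SW480 (adjusted p = 4.92e-06). For *AREG* these differences were −2.66 (adjusted p = 0.0236) and −3.07 (adjusted p = 0.0108), and for *TGFA* they were −1.84 (adjusted p = 1.79e-08) and −1.26 (adjusted p = 4.66e-06). In each case the larger effect was in SW480. The effect on *HBEGF* differed by 1.58 between HT29 and HCT116 (adjusted p = 0.0133) and by −1.58 between HCT116 and SW480 (adjusted p = 0.00725). Between HT29 and SW480 it differed by 0.0022 with a 95% interval of −0.80 to 0.81. For *EGFR*, which was called in neither line, the log2 fold changes of −1.35 in HT29 and 0.82 in SW480 differed by −2.17 (SE 0.50, adjusted p = 0.00377, and 0.110 with 1 mean per clone), and *ERBB2* differed by 1.02 between these lines (adjusted p = 0.00385). Leaving out HT29 WT 11A or SW480 WT 4B ended the call of *AREG* between HT29 and SW480 (adjusted p = 0.0546 and 0.0573). The *ERBB2* difference fell under the fold for a call, to between 0.88 and 0.99, without any 1 of the libraries HT29 WT 11A, HT29 WT 11B, HT29 KO 28A, HT29 KO 28B, SW480 WT 4B, SW480 KO 17A and SW480 KO 17B. Without HCT116 KO 47A, *EGFR* was also called between HT29 and HCT116, with a difference of −1.58 (adjusted p = 0.0490).

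With 1 mean per clone, KO against WT within HT29 called 0 of 14921 genes. Few calls in such fits are therefore no result about the members. For the differences between lines, the calls with 1 mean per clone were 3 between HT29 and SW480, 3 between HCT116 and SW480 and 0 between HT29 and HCT116. The differences of *EREG*, *TGFA* and *NRG1* between HCT116 and SW480 were called in that fit, with adjusted p of 0.0151, 0.0148 and 0.00973 by limma. *AREG* was not called there, with 0.316 for HT29 against SW480 and 0.272 for HCT116 against SW480. Nor was *HBEGF*, with 0.392 for HT29 against HCT116 and 0.229 for HCT116 against SW480, or *ERBB2*, with 0.155 for HT29 against SW480.

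*NRG1* and *EPGN* were close to the limit of detection. In HT29, *NRG1* had 0 reads in all 8 libraries, which allows up to 3 reads per library for counting error alone. In SW480 it had 43 reads over the 4 WT libraries (7 to 15 each) and 1 read over the 4 KO libraries, a ratio of 0.0226 after scaling with an exact 95% counting interval of 0.000558 to 0.133. It passed the filter for neither of these lines alone. In HCT116, *NRG1* had 26 reads in WT and 56 in KO, a ratio of 2.28 (1.41 to 3.78), and its adjusted p was 0.153. The called differences of the *NRG1* effect rest on these few reads, 3.22 between HT29 and SW480 and 4.54 between HCT116 and SW480, and ran from 1.53 to 5.81 and from 2.37 to 7.39 with other pseudocounts. In edgeR the first of these was not called (adjusted p = 0.99994). *EPGN*, which encodes epigen, had at most 16 reads in any library, reached in HCT116 KO 47A, and was not tested in any comparison.

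As a description, the 6 ligands were summed per kilobase in each library. In SW480 the sum was 408 ± 11.2 in WT and 1881 ± 246 in KO (SD, n = 4), 4.61 times higher. It was 2805 ± 1547 and 3012 ± 1055 in HT29 and 12624 ± 1205 and 13827 ± 1020.5 in HCT116. The KO sum of SW480 was below the mean sum of both other lines, although it lay within the range of the WT libraries of HT29, 1213 to 4163. *AREG* and *EREG* made up 65.2% and 31% of the sum in WT HCT116, whereas *TGFA* and *HBEGF* made up 71.2% and 22.6% in WT SW480. In the SW480 KO clones *EREG* was 10.9% of the sum, compared with 1.64% in WT, and *TGFA* was still the largest share with 61%.

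**Figure D4:**
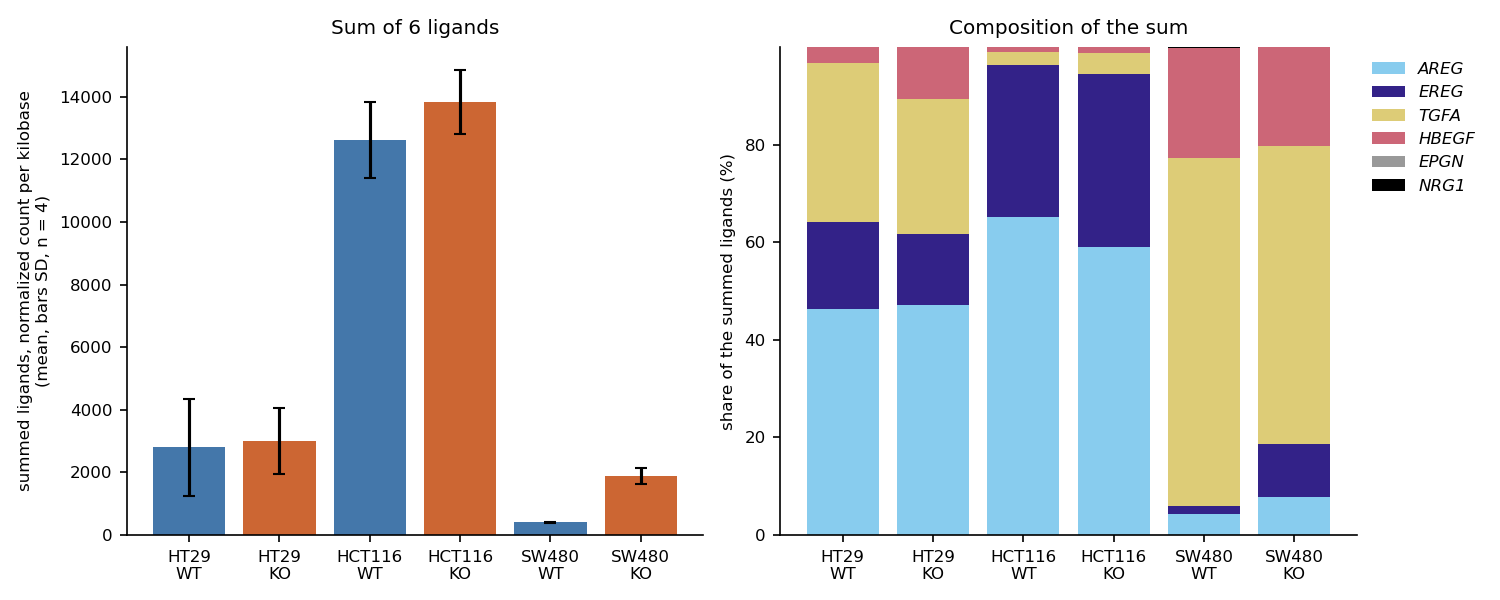
Left, the 6 ligands summed as normalized counts per kilobase (bars, mean; error bars, SD; n = 4 libraries per group). Right, the share of each ligand in the sum, where *AREG* and *EREG* fill most of the HCT116 bars and *TGFA* and *HBEGF* most of the SW480 bars.

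Clones of the same line and genotype were compared to see how far they differed, with an error that comes from rounds A and B alone. In WT HT29, 1 of 7 members was called (7.58% of all genes), namely *AREG*, which was higher in WT 11 than in WT 40 by 2.95 on the log2 scale (SE 0.23, adjusted p = 0.000279). In the HT29 KO clones 2 of 7 were called (12.5% of all genes). *AREG* was lower in KO 28 than in KO 38 by 1.51 (adjusted p = 0.00442) and *HBEGF* by 1.40 (adjusted p = 0.0117). In SW480, 3 of 7 were called between the WT clones (1.97% of all genes) and 0 between the KO clones (4.61%). WT 5 exceeded WT 4 by 2.06 for *EREG* (adjusted p = 0.000738), by 1.01 for *ERBB3* (adjusted p = 0.0203) and by 1.01 for *AREG* (adjusted p = 0.0288). In HCT116, 0 of 8 were called between the WT clones (1.44%) and 1 of 8 between the KO clones (3.28%), *EGFR*, which was higher in KO 44 by 1.12 (adjusted p = 0.00879). With 2 libraries a clone, several of these calls rested on 1 library. The call of *AREG* in the HT29 KO clones was lost without KO 28B, and that of *HBEGF* without KO 28A or KO 28B. The call of *EGFR* was lost without KO 44B or KO 47A, that of *ERBB3* in SW480 without WT 4A or WT 5B, and that of *AREG* in SW480 without WT 4B, WT 5A or WT 5B.

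The split of the squared deviations describes the same pattern. Differences between clones within a genotype held 95.4% of the sum of squares of *AREG* in HT29, against 51.4% over all genes tested in that line, and genotype held 2.69%. In SW480, genotype held 98.6% for *TGFA*, 94.1% for *HBEGF*, 92.4% for *AREG* and 90.3% for *EREG*, against 79.1% over all genes tested. A high share follows from their calls for genotype. Of the members not called there, *EGFR* had 86.9%, *ERBB2* 50.1% and *ERBB3* 0.23%. For *EGFR* in HCT116 the clones held 82.1%, against 32.1% over all genes.

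The wider pathway was read from 5 lists of 119 names, of which 117 were found. In SW480, 22 genes were higher and 10 lower of 110 tested, 29.1% against 17.5% of all genes. In HCT116, 6 were higher and 5 lower of 107 (10.3% against 5.06%), and in HT29, 2 were higher and 2 lower of 105 (3.81% against 2.3%). The list of the other ligands and the fourth receptor had 4 genes higher and 1 lower of 5 tested in SW480, and 0 called of 4 in each of HT29 and HCT116. In SW480 its median log2 fold change was 1.76, against −0.0042 over all genes. The genes *BTC*, *NRG4* and *TDGF1* in it passed the filter through 1 genotype alone. Its SW480 counts and median, and the total of 22 higher and 10 lower, include them.

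*BTC*, which encodes betacellulin, a further EGFR ligand, had 10 reads over the 4 WT libraries of SW480 and 917 over the KO libraries, a ratio of 88.9 (exact 95% counting interval 48.1 to 186). *NRG4* rose from 5.85 ± 3.09 to 40.4 ± 14.1 normalized counts (SD, n = 4), and *TDGF1* fell from 39.6 ± 25.3 to 1.89 ± 2.19. These 3 genes passed the filter through 1 genotype alone and so had to differ. The other 2 of the list are named after their values were seen. *EGF* rose from 26.6 ± 4.43 to 94.4 ± 27.9 (adjusted p = 0.000138) and *NRG2* from 150.5 ± 15.2 to 430 ± 38.3 (adjusted p = 2.45e-06).

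Among the genes of ligand shedding and trafficking, *ADAM19*, a metalloprotease, fell in all 3 lines. Its log2 fold change was −2.41 in HT29 (adjusted p = 0.00432), −3.61 in HCT116 (adjusted p = 0.0156) and −2.47 in SW480 (adjusted p = 8.60e-09). It was the 1 gene called of 14 tested in HT29 (7.14% against 2.3% of all genes) and of 13 in HCT116 (7.69% against 5.06%). In SW480, 1 was higher and 2 were lower of 13 (23.1% against 17.5%), the second being *PCSK6*, a proprotein convertase (log2 fold change −3.51, adjusted p = 4.45e-06).

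Of the inhibitors and genes of receptor turnover, 4 were higher and 2 lower of 22 tested in SW480 (27.3% against 17.5% of all genes), 1 was higher of 24 in HCT116 (4.17% against 5.06%) and 1 lower of 23 in HT29 (4.35% against 2.3%). *LRIG1*, a transmembrane inhibitor of ERBB receptors, was the one that fell in HT29, from 551 ± 118 to 32.2 ± 9.74 normalized counts (SD, n = 4, log2 fold change −4.08, adjusted p = 0.000178). *SH3KBP1*, an adaptor of receptor endocytosis, was the one that rose in HCT116, by 1.57 (adjusted p = 4.97e-06). Of the adaptors and kinases, 2 were higher and 1 lower of 35 in SW480 (8.57% against 17.5% of all genes), 1 was higher of 32 in HCT116 (3.12% against 5.06%) and 0 of 32 were called in HT29 (against 2.3%). *SHC4* was the adaptor with the largest difference in SW480 (log2 fold change 3.26, adjusted p = 6.07e-06), and it also passed the filter through the KO libraries alone.

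The immediate early and feedback genes of MAPK signaling had 11 genes higher and 4 lower of 35 tested in SW480 (42.9% against 17.5% of all genes), 4 and 4 of 34 in HCT116 (23.5% against 5.06%), and 2 and 0 of 32 in HT29 (6.25% against 2.3%). In SW480 the feedback inhibitors *SPRY1* (log2 fold change 3.39, adjusted p = 0.000434) and *SPRED3* (2.93, adjusted p = 4.08e-05) rose, while the immediate early gene *FOS* fell from 2104 ± 213 to 270 ± 110 normalized counts (SD, n = 4, adjusted p = 8.48e-06). In HCT116, *VGF* (2.10), *DUSP5* (2.04) and *FOSL1* (1.74) rose, and *EGR1* fell by 2.09, *ETV1* by 1.42 and *FOSB* by 1.40 on the log2 scale, with adjusted p from 6.34e-05 to 0.0362. In HT29, *PLAUR* rose by 1.38 (adjusted p = 0.00315) and *JUNB* by 1.31 (adjusted p = 0.00443).

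For the 4 members called in at least 1 line, the genes with the most similar pattern were found by Pearson correlation of log2 values centred within each line, over 24 libraries and 11763 genes with a mean of at least 100. The libraries share clones and the SW480 difference weighs on every value, so that no p is given. *MET* (r = 0.96), *TRAF3IP2* (0.96) and *BTC* (0.95) were nearest to *EREG*, and *TGFA* was its nearest fellow member (0.91). *ABLIM3*, *FRK* and *ANKRD33B* were nearest to *TGFA* (0.97, 0.97 and 0.96), and *PTPRM*, *SLC16A4* and *SHOX2* to *AREG* (0.93, 0.92 and 0.91). *KLF4*, *SEMA7A* and *RHOBTB1* were nearest to *HBEGF* (0.96, 0.96 and 0.95).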

How the data were processed

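Polyadenylated RNA of 24 cultures was sequenced after preparation with a kit that does not mark strand. Per the labels, the authors aligned reads to GRCh37 with STAR 2.7.5b, counted genes with featureCounts 2.0.1 and normalized with DESeq2 2.11.40.6 (a Galaxy wrapper version). The deposited signal is the gene count divided by 1 size factor per library. Whole reads were recovered for 100% of values (tolerance 0.01 reads), so that totals and counting intervals could be computed. The annotation release and the handling of reads with several alignments are not given in the sources used here.

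Each comparison was fitted over all genes with limma 3.58.1 (trend and robust variances, R 4.3.3) on log2(deposited value + 1), for genes at or above 10 in at least 4 libraries, with Benjamini-Hochberg adjustment. Fold changes on this scale understate those of low genes. A call required an adjusted p under 0.05 and an absolute log2 fold change over 1. All tests were two-sided. KO effects within a line used its 8 libraries, WT levels the 12 WT libraries, and differences of KO effects all 24. Fits tried beside these were edgeR 4.0.16 (quasi-likelihood) and DESeq2 1.42.0 on the recovered reads, 1 mean per clone, a random effect of clone, the round as a block, other pseudocounts (0.1 and 5), filters and scaling, single rounds, and each library and clone left out. The fit was tested on simulated data with independent libraries and no clone effect. That test could not show the error of treating rounds of a clone as replicates. Exact intervals of read ratios cover counting error only. Depth ran from 22297049 to 29068378 reads.

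Rounds were checked for pairing by taking round B minus round A in each clone. These differences were correlated over all tested genes between clones of a line. All 6 pairs of clones exceeded 0.1 in HCT116 (0.182 to 0.374), whereas 2 of 6 did in HT29 (−0.309 to 0.424) and 1 of 6 in SW480. Pairing in HCT116 thus comes from this correlation and not from the labels, and the block changed no call there.

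The members, gene lists, motifs and comparisons were chosen with earlier results of these data known. The genes named were all members, at most 8 called pathway genes per line by absolute fold change, and the 3 genes nearest in pattern to each called member. Outside this rule, *EGF*, *NRG2* and the SW480 value of *ADAM19* were named after their values were seen. Gene positions come from the GRCh37 annotation, and promoter sequences from RefSeq on GRCh38.p14.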

Additional observations from a re-analysis of the deposited data

Results flagged for a closer look

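Of 54 sets of 4 libraries (9 members in 6 groups), 3 held a library set apart from the others by Dixon's test, where chance gives about 1 in 20. *TGFA* reached 3835 normalized counts in the HT29 library KO 38A, against at most 3040.3 in the other KO libraries. *EPGN* had 2.02 in the SW480 library WT 4A and 0 in the other WT libraries, and *NRG1* had 0.934 in the SW480 library KO 21A and 0 in the other KO libraries, each a matter of 1 or 2 reads.

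The KO effect differed between lines in 12 tests of the difference itself. Between HT29 and HCT116 it differed for *HBEGF* (1.58, HT29 minus HCT116, log2). Between HT29 and SW480, as HT29 minus SW480, it differed for *EGFR* (−2.17), *ERBB2* (1.02), *AREG* (−2.66), *EREG* (−5.35), *TGFA* (−1.84) and *NRG1* (3.22). Between HCT116 and SW480, as HCT116 minus SW480, it differed for *AREG* (−3.07), *EREG* (−4.91), *TGFA* (−1.26), *HBEGF* (−1.58) and *NRG1* (4.54). The 2 values of *NRG1* rest on 43 reads in the SW480 WT libraries and 1 in the KO libraries. Its HT29 effect was fixed at 0, because all HT29 libraries had 0 reads.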

How the results depend on the processing

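In SW480, *AREG*, *EREG*, *TGFA* and *HBEGF* were called under each alternative that tested them. The count was 3 with at least 10 in every library, which left *EREG* untested, and 5 with no filter, which added *NRG1* as lower. The log2 fold changes of the 4 ligands ran over 2.55 to 3.55 for *AREG*, 4.20 to 6.26 for *EREG*, 1.82 to 2.13 for *TGFA* and 1.74 to 2.40 for *HBEGF*. In HCT116, 0 were called under any alternative run. In HT29 the count of 1 became 0 with the replicate block, clone means, the clone random effect, round A only and round B only, and ran from 0 to 2 with a library or clone left out. The fit with clone means called 0 of all 14921 genes tested in HT29. *HBEGF* had an adjusted p of 0.0588 with the block, 0.519 in round A only and 0.999 in round B only. The rounds of HT29 correlated unevenly between clones, from −0.309 to 0.424, so that pairing there is unsettled. The block changed no other call of KO against WT.

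The count for the KO effect of HT29 against HCT116 was 0 with clone means and with the clone random effect (1 to 2 with a library left out). For HT29 against SW480 the count of 6 became 3 with clone means, 4 in edgeR (without *ERBB2* and *NRG1*), 5 with TMM scaling, 5 with no filter and 4 with at least 10 in every library (4 to 6 with a library left out). With clone means it was 3 for HCT116 against SW480, where it was also 3 with at least 10 in every library. Between clones it ran from 0 to 3 in HT29 KO, 0 to 1 in HCT116 KO, 1 to 2 in SW480 WT and 0 to 1 in SW480 KO with a library left out, and was 1 in SW480 WT with a pseudocount of 5.

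The sign turned for members that were not called. *AREG* in HT29 was −0.10 in edgeR and DESeq2 (−1.08 to 1.87 with a library or clone left out), and its KO effect against HCT116 was −0.0897 in edgeR (−0.17 to 0.94). *EREG* in HT29 was 0.13 in round B only (−0.47 to 0.23). *EGFR* in HCT116 was 0.0547 in edgeR, 0.0520 in DESeq2 and 0.0601 in round B only (−0.62 to 0.50), *AREG* was 0.00061 in round A only (−0.16 to 0.13), and *ERBB2* ran from −0.0369 to 0.28. *ERBB3* in SW480 was −0.0685 in edgeR, −0.0713 in DESeq2 and −0.0110 in round B only (−0.47 to 0.55). The *HBEGF* difference of HT29 against SW480 was −0.00204 with a pseudocount of 5 and −0.0233 with TMM scaling (−0.25 to 0.26), and that of *ERBB3* for HCT116 against SW480 ran from −0.15 to 0.34. The causes were not tested. Read numbers were lowest for *EPGN* and *NRG1*, and *EREG* had 8 to 60 reads per library in SW480 WT.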

Other observations

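The genes around *EPGN*, *EREG* and *AREG* on chromosome 4 (14 protein-coding genes from 500 kb before *EPGN* to 500 kb after *BTC*, GRCh37) were chosen after their values were seen. In SW480, 4 of the 14 were tested, and 3 were called as higher in KO clones (*EREG*, *AREG* and *BTC*), where 10.7% of all genes were. *EREG* and *AREG* are members whose calls are given above, and the region was drawn around them, so that their part of this count is no new result. *BTC* passed the filter through the KO libraries alone and so had to differ. The fourth, *MTHFD2L*, a mitochondrial folate enzyme whose gene lies next to *EPGN*, had 337 ± 32.2 normalized counts in WT and 328 ± 48.1 in KO (SD, n = 4, log2 difference −0.05, adjusted p = 0.782 by limma). Among the genes too low to test in SW480, some also had higher means in KO. These were *CXCL1* (3.60 in WT, 16.1 in KO), *CXCL2* (0.739, 7.71), *CXCL3* (5.53, 11.9) and *PARM1* (4.13, 13.4). *CXCL6* had 2.40 in WT and 2.12 in KO, and the rest lay lower still. In HT29, 7 were tested and 2 were called, where 2.3% of all genes were. The chemokine gene *CXCL1* fell from 92.5 ± 24.3 to 14.0 ± 10.4 (adjusted p = 0.0411). The other, *CXCL3*, had 25.6 ± 10.00 in WT and 6.39 ± 2.09 in KO, but passed the filter through the WT libraries alone and so had to differ. In HCT116, 7 were tested and 0 were called by limma.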
